A study of Mus musculus with 3 samples.

Results

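The genes described here encode forkhead (FOX) and SOX transcription factors. They were taken by symbol from the count table, as all rows whose name begins with Fox, a class letter from a to s and a number, or consists of Sox and a number. Foxd3, Sox9 and Sox10 were set aside because they belong to the core neural crest factors. The rule used no measured value and gave 44 of 17285 rows, 33 forkhead and 11 SOX genes. RefSeq annotates 60 protein-coding genes under the same names on GRCm38.p6, and the others were not analysed here. RNA was sequenced from a stable empty-vector line of B16, a melanoma cell line of the mouse, and the group of 3 samples is called Mock (replicates 1, 2 and 3). With a single group, no groups could be compared. The labels state neither whether the stable line was 1 clone or a pool nor whether the replicates were cultured separately, and the extraction text speaks of organs although the samples are named as a cell line. The p-values of edgeR, limma and DESeq2 cover only the spread between the 3 samples, with variance estimates shared across genes. Those of the Poisson tests cover counting error alone. The spread between the samples may be technical. All 6 pigment cell markers were well above 1 CPM (reads scaled to library size), led by Tyrp1 at 12337 ± 399, Dct at 2713 ± 47.7, Pmel at 1258 ± 66.6 and Mlana at 919.6 ± 18.1 CPM (here and throughout, a mean ± SD over n = 3 libraries).

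Forkhead proteins bind DNA through a winged-helix domain, and SOX proteins through an HMG box that bends the double helix. Forkhead classes are named by letters and SOX groups by letters from A to H, and members of a class share most of the DNA-binding domain while differing in where they are expressed. In the pigment lineage SOX10 and FOXD3 are the classic members of these families.

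Each gene was tested against a level of 1 CPM with edgeR's quasi-likelihood F statistic, adjusted over all genes with a count. At this depth 1 CPM is 28.2 reads over the 3 libraries. A floor of 0.106 CPM (3 reads over the group) was used only for the folds of Sox12. Elsewhere a gene with no read stood at 0 CPM, and its 95% Poisson interval reached 0.131 CPM. Such limits cover counting error only. Of the 44 genes, 21 were above 1 CPM, 11 were below and 12 had no read. Among the 32 with a read, 65.6% were above and 34.4% below, whereas 74.3% of all 14408 genes with a read were above and 20.2% below. No read was found for 27.3% of the members and for 16.6% of the table's rows. The median level was 0.322 CPM over the members and 12.6 CPM over the table. The forkhead genes split into 17 above, 8 below and 8 without a read, and the SOX genes into 4, 3 and 4. The calls below 1 CPM rest on 1 to 12 reads each, and by DESeq2's Wald test 0 of the 11 were called, as were 0 of all genes, also unadjusted, whereas an exact Poisson test called 8 forkhead and 3 SOX genes below. A few genes carried most of the signal: Foxm1 held 28.8% of the 32381 forkhead reads and Foxk2 16.2%, while Sox11 held 56.3% and Sox6 38.1% of the 9740 SOX reads.

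**Figure D1:**
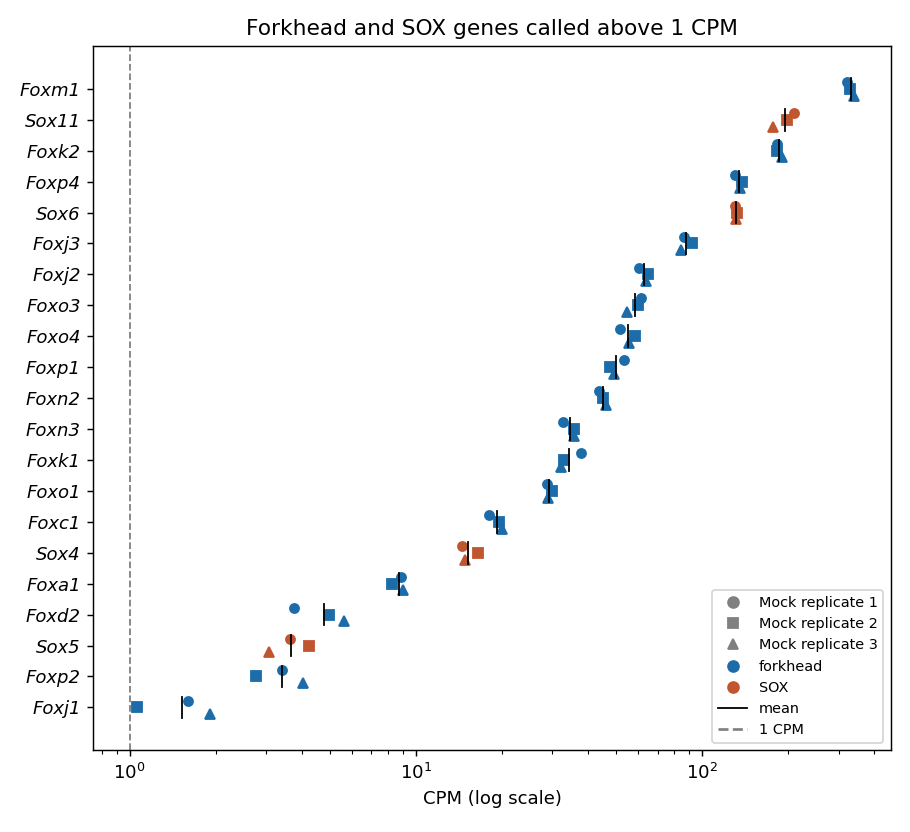
Level in CPM (horizontal, log scale) of the 21 forkhead and SOX genes called above 1 CPM, with 1 symbol for each Mock replicate and a black line at the mean. Foxm1 lies at the top near 330.5 CPM and Foxj1 at the bottom near 1.52 CPM, and the symbols of a gene lie close together except in the lowest rows.

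Foxm1, the activator of genes for G2 phase and mitosis, was the most abundant member. It had 321, 329 and 341 CPM in replicates 1, 2 and 3, and ranked 490 in the table. Its gene lies on chromosome 6 (128362967 to 128376146, plus strand, GRCm38) and starts 56 bases from the gene Rhno1, which had 97.5 ± 5.10 CPM. FOXM1 acts with B-MYB and the MuvB complex. All 6 listed genes of that machinery were above 1 CPM, with Rbbp4 at 234.9 ± 11.3, Mybl2 (B-MYB) at 96.95 ± 1.61, Lin54 at 28.3 ± 0.484 and Lin9 at 28.1 ± 1.21 CPM. All 20 listed FOXM1 target genes were above 1 CPM as well, where 74.3% of all genes with a read were. Their median was 89.1 CPM against 12.6 CPM over the table. The highest were the spindle factor gene Tpx2 at 198 ± 8.56, the mitotic kinesin gene Kif20a at 139 ± 6.29, the kinase gene Plk1 at 139 ± 1.24 and the kinase gene Aurka at 128 ± 2.80 CPM. The lowest, Cdc25c, stood at 23.5 ± 1.27 CPM. These genes are expressed in any dividing culture, and the part of FOXM1 in their levels was not tested.

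MuvB is known to contact the CHR element, TTTGAA, in the promoters of such genes. RefSeq promoter windows of 300 bases, 250 before and 50 after the start (GRCm38.p6), were on hand for 16 of the 20 targets, and the letters TTTGAA or their complement TTCAAA occurred in 10 of them (62.5%). They occurred in 18.2% of all 27025 promoters and in 13.1% of the 13290 promoters of genes in the table. The windows of Ccnb2 (chr9:70421505-70421804, minus strand), which encodes a mitotic cyclin and had 61.1 ± 6.06 CPM, and of Plk1 (chr7:122159185-122159484, plus strand) are shown 5′ to 3′ with the matches in capitals, because both hold a match, Ccnb2 2 of them.
Ccnb2: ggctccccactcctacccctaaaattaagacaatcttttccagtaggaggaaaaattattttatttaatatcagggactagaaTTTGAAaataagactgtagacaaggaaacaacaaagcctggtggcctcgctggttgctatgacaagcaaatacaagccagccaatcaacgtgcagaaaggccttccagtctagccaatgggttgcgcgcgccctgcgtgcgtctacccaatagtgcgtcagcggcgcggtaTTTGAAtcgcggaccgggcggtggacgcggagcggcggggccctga
Plk1: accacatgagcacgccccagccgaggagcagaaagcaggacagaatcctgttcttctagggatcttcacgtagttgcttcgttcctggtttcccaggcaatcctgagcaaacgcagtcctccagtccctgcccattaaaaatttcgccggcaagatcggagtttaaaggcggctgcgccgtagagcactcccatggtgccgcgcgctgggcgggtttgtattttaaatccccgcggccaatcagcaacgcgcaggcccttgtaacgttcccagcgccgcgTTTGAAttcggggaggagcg
The forkhead letters TGTTTAC or GTAAACA were in 0 of these 16 windows, in 3.52% of all promoters and in 2.63% of those of the table. Such matches describe letters only and are not binding sites.

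FOXK1 and FOXK2 bring the SIN3A corepressor and the deubiquitinase BAP1 to DNA. Foxk2 had 182, 183 and 191 CPM, and Foxk1 had 37.7, 33.0 and 32.1 CPM. Per kilobase of exon, which allows levels of different genes to be compared, Foxk2 stood at 35.3 ± 0.909 and Foxk1 at 4.52 ± 0.397 CPM. The log2 ratio of Foxk2 to Foxk1 was 2.97 ± 0.15 (SD over the libraries) and the fold 7.82. Their partner genes Bap1, Sin3a and Sin3b were above 1 CPM, at 80.0 ± 4.17, 65.5 ± 3.24 and 78.9 ± 1.73 CPM.

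FOXP proteins are repressors that pair with each other through a leucine zipper. Foxp4 led the class with 131, 138 and 136 CPM, and Foxp1 had 53.2, 47.8 and 49.3 CPM. Foxp2, known in humans for inherited speech disorder, had 3.42, 2.76 and 4.03 CPM, so the ranges of these genes did not overlap. Per kilobase, Foxp4 was above Foxp1 by a log2 ratio of 2.91 ± 0.12 and Foxp2 below it by -4.12 ± 0.25. With the longest transcript as length the ratio of Foxp4 to Foxp1 was 2.27, and without length 1.43. Foxp3, the master regulator of regulatory T cells, had a single read in replicate 2, and its row held a fractional count. Its exons overlap those of Ccdc22 and Ppp1r3f on the opposite strand by 590 and 266 bases, and both neighbours had reads. The deposited counting is not stated to use strand, so that read cannot be assigned with certainty.

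Foxj2, Foxj3, Foxn2 and Foxn3 are widely transcribed factors, and all were above 1 CPM. Foxj3, which acts on muscle fibre genes, had 86.7, 92.4 and 84.3 CPM. Foxj2 had 60.2, 65.0 and 63.7 CPM, below Foxj3 in reads in every library. Per kilobase of merged exon the order turned, with a log2 ratio of Foxj2 to Foxj3 of 0.56 ± 0.07, because the annotated exons of Foxj3 add up to 10973 bases and those of Foxj2 to 5346. With the longest transcript as length (4789 and 5283 bases) the ratio was -0.62, so the order of this pair is not settled. Foxn2 had 43.8, 45.2 and 46.2 CPM and Foxn3, a repressor linked to the DNA damage checkpoint, 32.6, 35.8 and 35.6 CPM. Per kilobase Foxn2 exceeded Foxn3 by a log2 ratio of 1.02 ± 0.05. Foxn1, which directs thymic epithelium and hair keratinisation, had 2 reads, both in replicate 2, and Foxn4, a retinal progenitor factor, had none.

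Foxj1, the switch for motile cilia, sat at the edge of the call. It had 15, 10 and 18 reads, or 1.60, 1.06 and 1.91 CPM, with an edgeR adjusted p of 0.0458 against 1 CPM. The call was lost without replicate 1 (0.204) and without replicate 3 (0.253), and the adjusted p ran from 4.86e-04 to 0.761 over the alternatives, which include tests against 0.5 and 2 CPM. Of 7 other multiciliated cell genes with a row, Tekt1, Dnah5 and Hydin had no read, Mcidas was below 1 CPM, and Rsph1 was unresolved at 0.886 ± 0.166 CPM. Ccno (1.63 ± 0.157 CPM) and the general tubulin gene Tubb4b (366 CPM) were above.

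FOXO factors are kept out of the nucleus when AKT phosphorylates them and 14-3-3 proteins bind, and they switch on genes of arrest, antioxidant defence and catabolism when that signal falls. Foxo3 had 61.3, 59.9 and 54.5 CPM and Foxo4 had 51.6, 58.2 and 55.6 CPM, so their ranges in reads overlapped. Foxo1 was lower at 28.8, 30.0 and 29.1 CPM. Per kilobase Foxo4 was above Foxo3 by a log2 ratio of 1.03 ± 0.14 and Foxo1 below it by -1.19 ± 0.09. Without a length correction the Foxo4 ratio was -0.09 (limma adjusted p = 0.237, range over the alternatives 2.91e-45 to 0.237). Foxo6, the FOXO gene of brain, had 3 reads and was below 1 CPM.

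All 19 FOXO regulators were above 1 CPM, where 74.3% of all genes with a read were. Their median was 152 CPM, against 12.6 CPM over the table. They were led by the 14-3-3 genes Ywhae (844 ± 19.8 CPM) and Ywhaz (674 ± 17.3 CPM), Akt1 (741 ± 6.79 CPM) and the casein kinase gene Csnk1a1 (374 ± 6.11 CPM). Of 23 FOXO target genes, 21 were above 1 CPM, Tnfsf10 was unresolved at 0.869 ± 0.267 CPM, and the gluconeogenic gene Pck1 had no read. The median of these targets was 18.4 CPM, against 12.6 CPM over the table. The highest were the peroxiredoxin gene Prdx3 at 137 ± 3.27, the CDK inhibitor gene Cdkn1b at 102 ± 5.49, Cited2 at 75.6 ± 4.21 and the stress gene Gadd45a at 73.7 ± 3.22 CPM. The letters TGTTTAC or GTAAACA were in 4 of 22 target promoters (18.2%), in 3.52% of all promoters and in 2.63% of those of the table. These are matches of letters, not binding sites. RNA levels do not show whether FOXO proteins were nuclear.

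**Figure D2:**
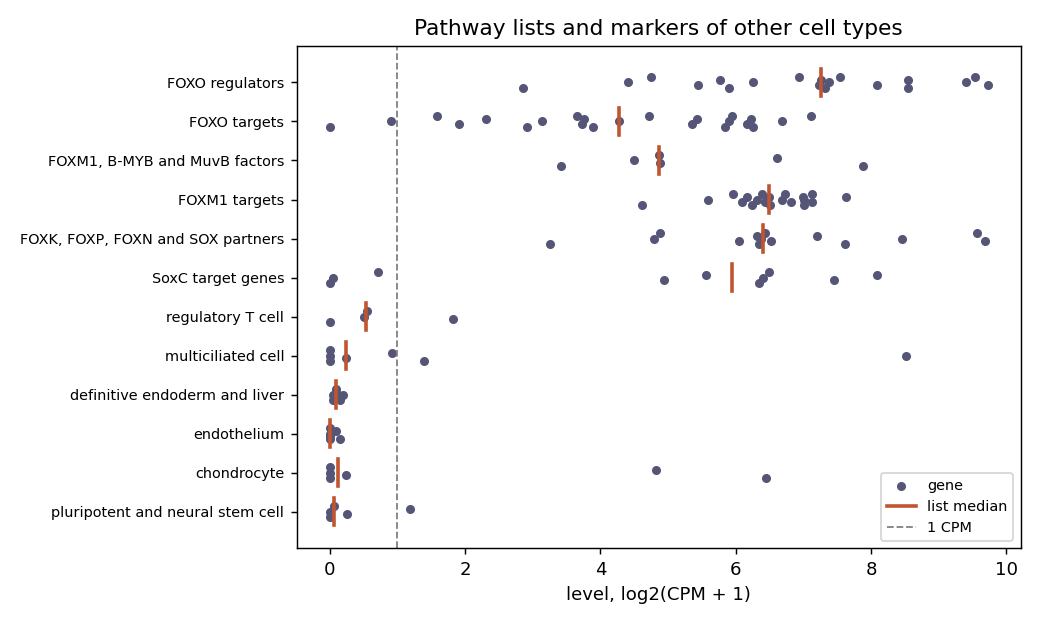
Level of every gene with a row, as log2(CPM + 1), in 6 pathway lists and in 6 lists of markers of other cell types, with the list median in orange and 1 CPM dashed. The FOXO and FOXM1 lists lie mostly to the right of the line, whereas the medians of all 6 marker lists lie to its left.

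Forkhead genes that mark embryonic lineages were low, with 3 exceptions above 1 CPM. Foxc1, which patterns neural crest mesenchyme of the eye, had 18.1, 19.5 and 19.9 CPM. Foxa1, a pioneer factor of endoderm and hormone-responsive epithelia, had 8.87, 8.27 and 9.02 CPM. Foxd2 had 3.74, 4.98 and 5.62 CPM. All 3 were above 1 CPM in every library, and their ranges did not overlap. The other genes of these classes were scarce: Foxa2, the endoderm partner of Foxa1, had 5 reads, and Foxc2 and Foxd1, known from lymphatic vessels and kidney stroma, had none, as did Foxd4. All 7 endoderm and liver genes with a row were below 1 CPM, where 20.2% of all genes with a read were. These calls rest on 1 to 4 reads each, and DESeq2's Wald test called 0 of all genes below. Hnf4a had 4 reads, and Alb, Gata4 and Apoa1 had 2 each. Of 4 regulatory T cell genes only Ikzf2 was above, at 2.55 ± 0.273 CPM, Tnfrsf18 and Il2ra were below with 13 and 12 reads, and Ctla4 had no read.

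Among the remaining forkhead genes, Foxh1, the SMAD partner of nodal signalling, had 12 reads, 4 in each library after rounding, and was below 1 CPM at 0.432 ± 0.00481 CPM (edgeR adjusted p = 0.00988). Against 0.5 CPM it was not called (0.575), and the range over the alternatives was 1.98e-04 to 0.690. Foxi2 and Foxr1 had 1 read each. Foxf1, Foxl1, Foxr2 and Foxs1 had none. Foxf1, Foxc2 and Foxl1 form a cluster on chromosome 8, with 28027 bases between Foxf1 and Foxc2 and 9045 between Foxc2 and Foxl1. All 3 were without a read, although Mthfsd, which lies between Foxf1 and Foxc2 at 3484 and 7779 bases from them, had 19.2 ± 0.457 CPM.

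**Figure D3:**
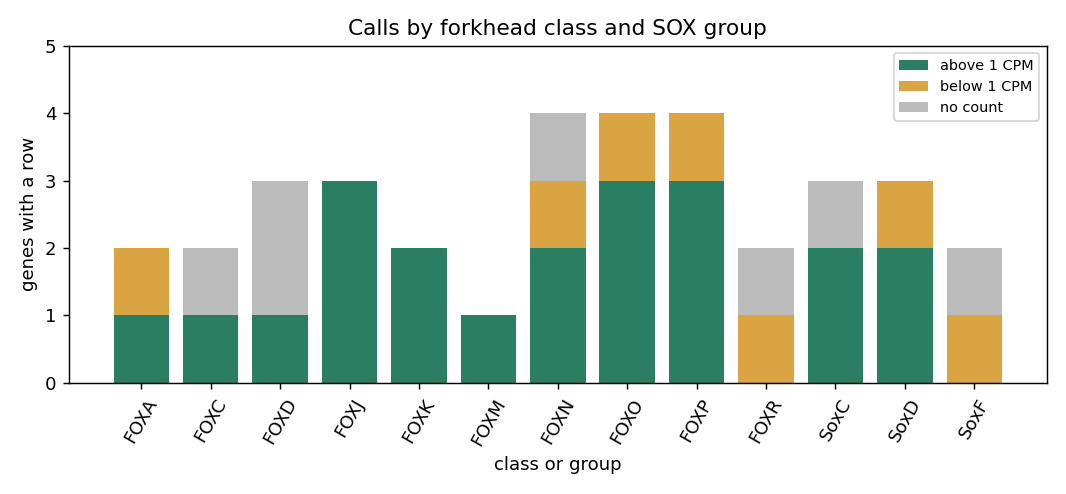
Number of genes with a row (vertical) in each forkhead class and SOX group that has at least 2 genes or 1 gene above 1 CPM, divided into those above 1 CPM, those below and those without a read. Every gene of the J, K and M classes was above, and the O, P and N classes held 8 more of the 17 forkhead genes above.

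Of the 11 SOX members, the 4 above 1 CPM were SoxC and SoxD genes. Sox10, a SoxE gene set aside by the rule, had 14395 reads, more than the 9740 of all members together. The SoxC group, whose proteins act in progenitors and developing neurons and are strong activators, holds Sox4, Sox11 and Sox12. Sox11 (chromosome 12, 27334264 to 27342574, minus strand) had 209, 197 and 176 CPM, and Sox4 had 14.5, 16.4 and 14.8 CPM. Per kilobase Sox11 stood at 23.4 ± 1.99 and Sox4 at 3.18 ± 0.212 CPM, a log2 ratio of 2.87 ± 0.15 and a fold of 7.31. Sox12 (chromosome 2, 152393611 to 152398063, minus strand) had no read and was at least 980-fold lower than Sox11 and at least 133-fold lower than Sox4 per kilobase, with the floor of 3 reads taken over the group.

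Sox11 was also the member that differed between the libraries. Of 21 members with a mean of at least 10 reads, only Sox11 varied beyond counting error (Poisson deviance test, adjusted p = 1.61e-04), with 1958, 1863 and 1664 reads, high in replicate 1 and low in replicate 3. Of all genes tested in this way, 3.31% varied. The highest level was 1.19 times the lowest, which is small beside the distance from Sox4.

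The promoter windows of Sox11 (chr12:27342669-27342968, minus strand) and Sox12 (chr2:152397997-152398296, minus strand) are shown 5′ to 3′, since these genes of a shared group lay at opposite ends of the levels. The window of Foxp3 (chrX:7579426-7579725, plus strand) is added as a sparse counterpart. Capitals mark CpG dinucleotides, the site of DNA methylation.
Sox11: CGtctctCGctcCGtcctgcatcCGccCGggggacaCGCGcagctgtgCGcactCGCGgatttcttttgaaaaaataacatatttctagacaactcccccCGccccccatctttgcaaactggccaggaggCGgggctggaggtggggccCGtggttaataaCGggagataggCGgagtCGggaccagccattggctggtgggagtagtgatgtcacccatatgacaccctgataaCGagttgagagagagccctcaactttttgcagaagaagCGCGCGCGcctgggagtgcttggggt
Sox12: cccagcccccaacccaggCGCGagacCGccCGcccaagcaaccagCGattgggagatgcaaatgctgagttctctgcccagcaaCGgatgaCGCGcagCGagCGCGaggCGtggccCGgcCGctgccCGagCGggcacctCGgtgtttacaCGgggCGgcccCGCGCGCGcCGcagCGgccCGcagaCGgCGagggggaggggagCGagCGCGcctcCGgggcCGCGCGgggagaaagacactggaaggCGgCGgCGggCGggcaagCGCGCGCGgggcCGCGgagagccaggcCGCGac
Foxp3: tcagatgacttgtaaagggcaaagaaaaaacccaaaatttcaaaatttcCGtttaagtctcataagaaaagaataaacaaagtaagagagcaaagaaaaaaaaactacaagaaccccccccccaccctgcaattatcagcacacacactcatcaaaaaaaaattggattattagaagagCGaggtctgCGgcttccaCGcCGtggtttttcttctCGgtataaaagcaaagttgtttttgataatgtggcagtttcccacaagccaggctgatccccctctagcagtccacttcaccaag
Sox11 has 21 CpG dinucleotides in this window, Sox12 47 and Foxp3 6, while the median over promoters of the table was 18. The window of the unread gene was thus denser in CpG than that of the abundant gene. The Sox12 window also holds the forkhead letters TGTTTAC. These letters or their complement were in 2 of 29 member promoters (6.9%), 3.52% of all promoters and 2.63% of those of the table.

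Windows were on hand for 29 of the 44 members, taking the farthest upstream of the starts listed for a gene. Some windows lie wholly inside the gene as GENCODE annotates it, among them those of Sox5, Foxn3, Foxp1, Foxj3, Foxp3 and Foxa1. The Sox5 window ends at 143947356, while the gene, on the minus strand, reaches 144781977. The CpG count had a median of 26 (3 to 59) for the 15 members above 1 CPM and of 13.5 (3 to 47) for the 14 below or without a read. In forkhead genes, 9 windows held at least 26 CpG dinucleotides and all 9 belonged to genes above 1 CPM, against 2 of 11 with fewer. Those 2 were Foxp1 and Foxn3, whose windows lie inside the gene, as do those of Foxj2, Foxj3 and Foxa1 among the 9. In SOX genes the windows with at least 26 were those of Sox12 and Sox13, neither of which was above, against 4 of 7 with fewer. The bound of 26 equals the median of the members above 1 CPM and was chosen after the values were seen, so these are descriptions. The same split was not made over all genes of the table, so it cannot be called particular to these families. DNA methylation was not measured.

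**Figure D4:**
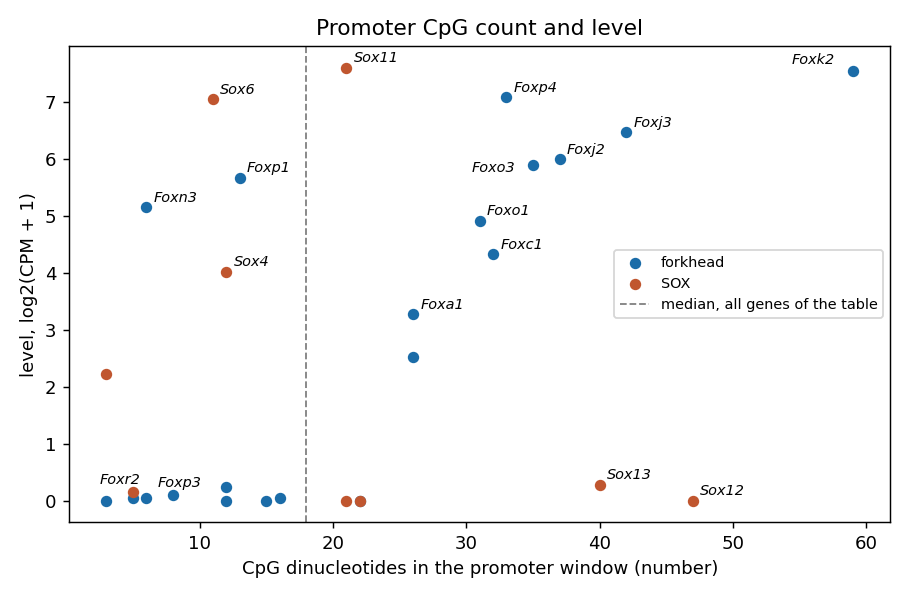
Level as log2(CPM + 1) (vertical) against the number of CpG dinucleotides in the 300-base promoter window (horizontal) for the 29 forkhead and SOX genes with a window, with the median of all genes of the table dashed at 18. Foxk2 lies at the upper right with 59, and Sox12 and Sox13 lie at the lower right with 47 and 40.

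SoxD proteins lack an activation domain of their own and modulate other SOX factors, and SOX5 and SOX6 assist SOX9 in cartilage. Sox6 (chromosome 7, 115470872 to 116038796, minus strand) was high and steady with 130, 133 and 131 CPM. Sox5, a modulator of SOX10 in melanocytes, had 3.63, 4.24 and 3.08 CPM, and Sox13 had 2, 1 and 3 reads. Per kilobase Sox5 was below Sox6 by a log2 ratio of -5.12 ± 0.22, while Sox5 and Sox6 were above Sox13 by 2.14 ± 0.84 and 7.25 ± 0.63. Sox6 lies 601 bases from 1110004F10Rik, which had 87.0 ± 4.50 CPM. Of 6 cartilage genes, Col11a2 (86.2 ± 3.74 CPM) and Col2a1 (27.3 ± 2.41 CPM) were above 1 CPM, Comp was below, and Acan, Matn1 and Hapln1 had no read. The part of SOX5 and SOX6 in the levels of these cartilage genes, with or without reads, was not tested. Sox9 itself, a SoxE gene outside the members, had 14, 6 and 7 reads and was unresolved at 0.958 ± 0.469 CPM.

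The SOX members outside SoxC and SoxD had between 0 and 3 reads each. Sox8, a SoxE relative of Sox10, had no read, whereas Sox10 itself had 510.0 ± 36.7 CPM. Sox7 had 2 reads and Sox18 none. They are SoxF genes of endothelium, and of 6 endothelial genes with a row Pecam1 had 3 reads, Tek 2, and Cdh5, Kdr, Tie1 and Emcn none. Sox15 (SoxG) had 3 reads, and its exons share 31 bases with Mpdu1 on the opposite strand. Sox21 (SoxB2), a repressor in neural progenitors, had no read. Of 5 genes of pluripotent and neural stem cells with a row none was above 1 CPM. Fabp7 was unresolved at 1.28 ± 0.388 CPM, Gfap had no read, and Nanog and Pax6 were below.

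Of 10 SoxC target genes, 7 were above 1 CPM, or 77.8% of those with a read, near the 74.3% over all genes. They were led by Nes at 270.9 ± 6.35, Ezh2 at 174 ± 7.40, Plxnb1 at 88.6 ± 2.45 and Tead2 at 83.6 ± 1.91 CPM. Genes known from neurons stood on both sides. Tubb3 (79.9 ± 0.473 CPM) and Dbn1 (46.2 ± 1.65 CPM) were above, Dcx was unresolved at 0.637 ± 0.182 CPM, Sema3a was below with 1 read, and Stmn2 had no read. The median of the list was 63.0 CPM. All 14 partner genes of FOXK, FOXP, FOXN and SOX proteins with a row were above 1 CPM, with a median of 83.7 CPM, from Ctnnb1 (821 ± 1.59), Chd4 (757 ± 22.8), Ctbp1 (349.6 ± 4.67) and Hdac2 (195 ± 8.06 CPM) down to the SOX partner gene Pou3f2 at 8.51 ± 0.969 CPM.

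Ranked per kilobase, the order was Foxm1 (57.4 ± 1.67), Foxk2 (35.3), Foxp4 (27.4), Sox11 (23.4), Foxo4 (15.8 ± 0.952), Foxj2 (11.8 ± 0.469), Sox6 (8.86 ± 0.101) and Foxj3 (8.001 ± 0.383 CPM per kilobase). Ranks 5 to 16 depended on the length used. With the longest transcript in place of all exons, Foxj3 (18.3) was followed by Foxo4 (17.4), Sox6 (15.2) and Foxj2 (11.9 CPM per kilobase), while the first 4 genes kept their order. By that length Foxn2 (8.86) stood above Foxo3 (8.55) and Foxp1 (6.98) above Foxk1 (4.61), the reverse of the order by all exons. Foxn3 moved from rank 16 to rank 13. The overlaps between libraries that follow are for the order by all exons. Foxj3 and the next gene, Foxo3 (7.74 ± 0.474), overlapped between libraries, and so did each neighbouring pair among Foxo1, Foxc1, Sox4 and Foxn3, between 3.38 and 3.02, and the pair Sox5 and Foxp2 at 0.254 and 0.208. The remaining neighbouring pairs of that order did not overlap, though Foxo3 and Foxn2, and Foxk1 and Foxp1, changed places with the length used. All ratios to a relative share that gene's counts. Their variance estimates are thus not independent across genes, and the p-values may be too small. All 10 plotted ratios were called by limma. The largest limma adjusted p was 8.80e-21, for Foxj2 to Foxj3 (range over the alternatives 2.97e-25 to 0.00197), a ratio that turned with the length used. Such calls are common at this depth: 48.8% of the genes tested were higher and 45.3% lower than Foxk1, 38.1% and 57.1% for Foxo3, 37.6% and 58.1% for Foxj3, 57.0% and 39.1% for Foxn3, 53.4% and 41.9% for Foxp1, 55.8% and 39.7% for Sox4, and 35.8% and 61.0% for Sox6. For the ratios of Sox5 and Sox6 to Sox13 the adjusted p was 9.98e-06 and 1.76e-50, and 81.7% of the genes were higher and 3.68% lower than Sox13.

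**Figure D5:**
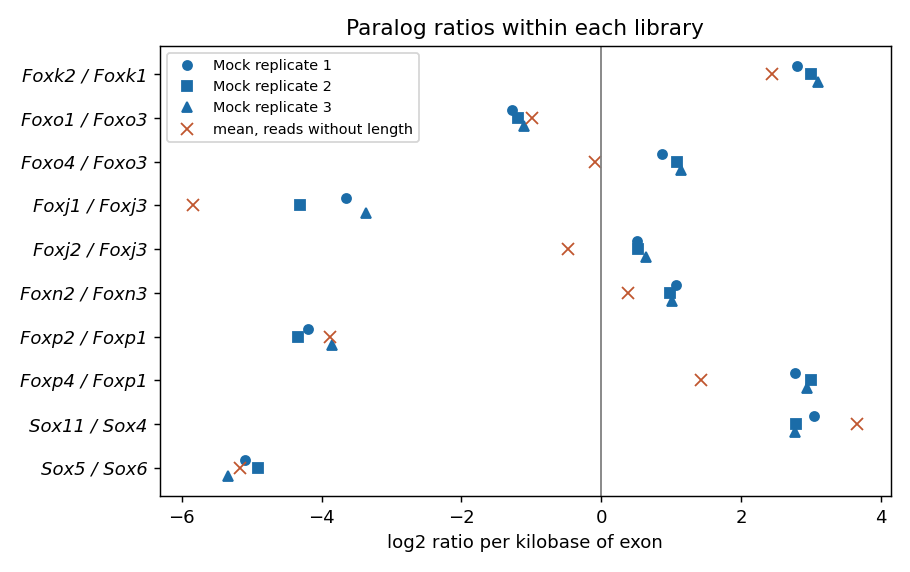
Log2 ratio per kilobase of exon of a gene to a relative of its class within each Mock replicate, with orange crosses for the mean ratio of reads without length. Foxk2, Foxp4 and Sox11 lie near 3, and the crosses of Foxo4 and Foxj2 lie on the other side of 0 from their symbols.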

How the data were processed

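Total RNA of 3 Mock samples was sequenced from libraries made by BGI, per the labels' protocols. The authors' deposited table gives estimated counts per gene symbol, without normalization, on a genome build that the submitters' processing notes name as GRCm38.p6. Not given in the sources used here are the aligner, the counting tool, the annotation and the strand setting. Of 17285 rows, 2270 held a fractional count (over 0.005 from a whole number), among them the 4 member rows of Foxj3, Foxp1, Foxp3 and Foxh1, whose levels are uncertain to that extent. Totals were 9328096, 9456527 and 9438905 counts, with TMM factors of 1.003, 0.998 and 0.999.

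Counts were rounded for tests, and CPM was formed from the deposited values. For the test of levels against 1 CPM, an intercept-only model was fitted with edgeR 4.0.16 (R 4.3.3) and its quasi-likelihood F statistic, bounded by the Poisson test, was used with Benjamini-Hochberg adjustment over 14408 genes and a threshold of 0.05. Ratios within a class used log2((count + 0.5)/exon length) and limma 3.58.1 with a trend, over genes with a GENCODE M21 length, that of all exons merged. Variation between libraries was tested with a Poisson deviance test where the mean count was 10 or more. DESeq2 1.42.0 served as an alternative. Figures used matplotlib 3.10.9. The tests were checked on simulated counts. Promoter sequences are RefSeq's.

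The members and lists were chosen with earlier results of these data known. Members are named, and from each list the 4 highest genes and those without a count, plus those a result turned on, such as the FOXK partners, which were named after their values were seen. The relative for SoxD was changed from Sox13 to Sox6 for Sox5 after Sox13 was seen to have few reads. Listed genes without a row under their symbol were not analysed here. A few genes that the naming rule covers are not reported here, though they stay in the counts.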

Additional observations from a re-analysis of the deposited data

How the results depend on the processing

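The count of forkhead genes below 1 CPM was 8. It was 1 with a minimum of 10 counts per gene, 0 by DESeq2's Wald test, and 5 to 6 with each replicate left out. The count of SOX genes below was 3, and it was 0 under each of the first 2 of these settings and 3 with each replicate left out. The filter removes genes with few reads by construction. By DESeq2's Wald test 0 of all genes were below, with and without adjustment at 0.05, whereas the exact Poisson test called 8 forkhead and 3 SOX genes below. The cause of the DESeq2 difference was not tested. Leaving out replicate 1 or 2 gave 5 forkhead genes below. Foxa2 and Foxn1 lost the call without replicate 1 (edgeR adjusted p = 0.051 each, with ranges over the alternatives up to 0.411 and 0.218), and genes read only in replicate 2 could not be tested without it. The counts above 1 CPM were 15 to 17 for forkhead and 4 for SOX genes under all alternatives run, and 16 to 17 and 4 with each replicate left out. Foxj1 turned to -0.40 on the log2 scale against 2 CPM. Foxp2 was not called by DESeq2 (adjusted p = 0.0805, range 2.02e-23 to 0.0805).

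The log2 ratio of Foxj2 to Foxj3 was 0.56 per kilobase, -0.62 with the longest transcript and -0.48 without length, so that it turned with the length used, and that of Foxo4 to Foxo3 was 1.03 per kilobase and -0.087 without length. The other plotted ratios kept their sign and call, but some moved by over 1.5 times in fold. Foxp4 to Foxp1 was 2.91, 2.27 with the longest transcript and 1.43 without length, and Foxj1 to Foxj3 was -3.77, -4.97 and -5.84 in the same order. Without length, Foxn2 to Foxn3 was 0.38 and Sox11 to Sox4 was 3.66. The count of members that varied between libraries was 1 with library totals and with a minimum mean of 5 counts as well. No paired analysis was possible because the samples form a single group. At this depth the 12 members without a read each had a 95% Poisson interval up to 0.131 CPM. The depth cannot place Foxj1 firmly above 1 CPM.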
